A study of Mus musculus with 14 samples.

Results

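The 6 libraries examined here are the RNA-seq libraries of mouse epidermal cells from the distal memory region, out of 14 in the series. The other 8 libraries are from a control region and enter only where stated, for their own spread; no difference between the regions was computed. The members were chosen by region label alone. The cells carried Lrig1CreER and Rosa-TdTomato, an inducible Cre driven from the locus of Lrig1 and a red fluorescent reporter that Cre switches on, so that progeny of Lrig1-expressing cells stay marked. The labels give the treatment as none and the time as 8w pw1, and name the cells Lrig1 GL Sca1+ epidermal cells. Cells were sorted by flow cytometry, grown for 1 week in complete keratinocyte medium, and made into small-pool libraries with Smart-Seq2 and Nextera XT. The 8 control libraries share genotype, cell type, time and treatment label. The sample descriptions place distal libraries 1 and 2 in set MEM1 and libraries 3 to 6 in set MEM2. The labels tie no library to an animal or culture of its own and do not say how many were pooled. The p-values therefore reflect how much these 6 libraries scatter, and that scatter may be technical.

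Lrig1 marks stem cells of the upper hair follicle, whose progeny can enter the epidermis between follicles after a wound. Cultured keratinocytes form a proliferating basal layer that expresses Krt5 and Krt14, and some of them start terminal differentiation, in which corneodesmosome proteins, small proline-rich proteins and kallikreins are made. Stressed keratinocytes also release interleukin 1 and chemokines and contract through actin and non-muscle myosin. Smart-Seq2 copies polyadenylated RNA and amplifies it by PCR, a step in which sequences of different GC content can be copied unequally.

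Total counts were 2414631, 2389341, 4513518, 4381280, 3335486 and 2137934 in libraries 1 to 6. The labelled cell type was checked against its markers. Lrig1 ranged from 71.5 to 99.9 CPM (counts scaled to the library total), with a median of 88.8. Ly6a, which encodes Sca1, ranged from 1351 to 1784 CPM. Krt5 ranged from 3156 to 5884 CPM, Krt14 from 6424 to 12081 CPM and Krt17, a keratin of follicle and stressed epidermis, from 8486 to 14475 CPM. All 5 markers were thus present in every library. Immune cell markers summed to between 6.15 and 16.2 CPM over the list, with 7 of 15 at 0 in every library (H2-Aa, Cd207, Cd3e, Cd3g, Trdc, Tyrobp and Laptm5). All 15 pairs of libraries differed by more than sampling noise (chi-square per degree of freedom 6.83 to 40.0).

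Genes were ranked by relative spread. This is the SD over the 6 libraries of log2 CPM, divided by the median SD of the genes nearest in mean expression, so that a value of 1 is the usual spread at that mean. A gene was tested if it passed a filter that asks for counts in all 6 libraries, which leaves out genes present in only a few of them. Of 8919 tested genes, the median SD was 0.40 on the log2 scale, and 663 genes (7.43%) had a relative spread above 2. Corneodesmosin (Cdsn, on chromosome 17), the adhesive protein of the junctions between cornified cells, had the largest value. It measured 11.6, 19.3, 34.1, 7.08, 127 and 182 CPM in libraries 1 to 6, a relative spread of 4.49. Libraries 5 and 6 stood high and library 4 low, and the highest level was 25.8-fold above the lowest. The counts behind these levels ran from 28 to 414.

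The 20 named genes of largest relative spread fell into 2 kinds. Cdsn, Cst6 and Klk6 are genes of epidermal differentiation, and the other 17 all passed the test for a rise with total count described below. Cst6 (cystatin M/E, a protease inhibitor of the cornified layer) measured 24.4, 34.9, 9.73, 8.34, 261 and 16.7 CPM, so that library 5 alone stood high. Klk6 (a kallikrein, that is a secreted serine protease) measured 17.8, 30.1, 58.7, 26.5, 258 and 56.7 CPM and was likewise highest in library 5. Relative spread was 4.05 for Cst6 and 3.68 for Klk6. The 17 others had values between 3.70 and 4.28, and among them were Snrpe (a core protein of the splicing machinery), Ndufb6 (a subunit of respiratory complex I), Stag2 (a cohesin subunit), Clasp2 (a microtubule-binding protein) and Ap3s1 (a subunit of a vesicle coat).

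**Figure D1:**
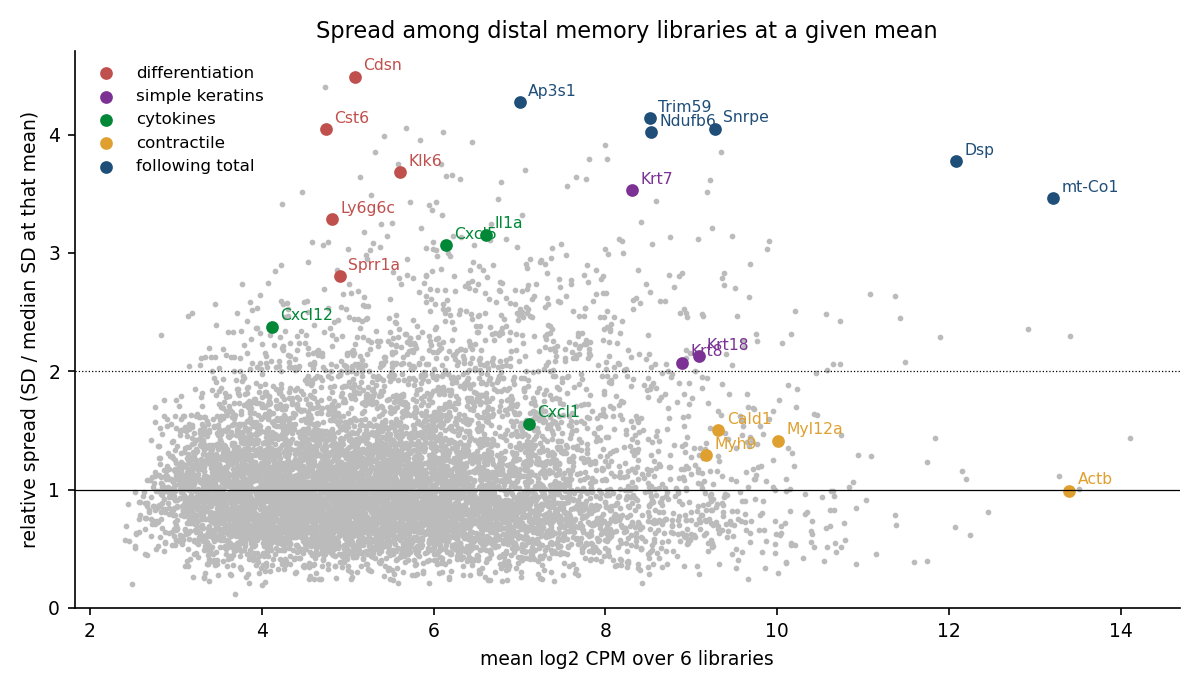
Relative spread (SD of log2 CPM over the 6 distal libraries divided by the median SD of genes of like mean) against mean log2 CPM for the 8919 tested genes, with named genes coloured by kind. The solid line is the usual spread and the dotted line is 2; Cdsn is highest at 4.49, while the contractile genes shown lie between 0.99 and 1.50.

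The most abundant of these 20 genes was Dsp, which encodes desmoplakin, the protein that ties keratin filaments to desmosomes. Dsp measured 2112, 2269, 10766, 10354, 5658 and 2166 CPM in libraries 1 to 6. Its slope on log2 total count was 2.37 (SE 0.17) on the log2 scale per doubling of total (edgeR quasi-likelihood test, adjusted p = 7.21e-07). Trim59 (a RING-finger protein) measured 181, 214, 974, 1026, 376 and 162 CPM, with a slope of 2.53 (SE 0.19). Ndufb6 measured 218, 190, 941, 1019, 367 and 171 CPM, with a slope of 2.44 (SE 0.19). In all 3 genes libraries 3 and 4, which have the largest totals, were highest, library 5 lay between, and libraries 1, 2 and 6 were lowest. CPM is scaled by TMM totals, so a slope of 0 describes a gene that keeps step with most genes as depth changes. The TMM factors were 1.09, 1.07, 0.88, 0.92, 1.00 and 1.06 in libraries 1 to 6. They were lowest in libraries 3 and 4, so a gene with a constant share of counts would have a slope above 0.

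Across all tested genes, 1129 rose with total count (12.7% of those tested) and 87 fell (0.975%), by edgeR's quasi-likelihood test with adjusted p under 0.05. With upper-quartile scaling the split was 763 higher and 513 lower, since that scaling moved the median slope over all genes from -0.02 to -0.25. Within set MEM2 alone (4 libraries) 346 genes were higher and 14 lower, and with the set as a second term 595 were higher and 43 lower. Leaving out library 3 gave 714 called genes and leaving out library 6 gave 706.

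Among genes with mean log2 CPM of at least 3, the steepest rise belonged to Zfp81, a zinc-finger gene on chromosome 17. It measured 10.8, 7.22, 58.9, 104, 31.9 and 5.85 CPM, with a slope of 3.58 (SE 0.39, edgeR adjusted p = 2.97e-05). Zinc-finger genes of this kind have close relatives in the genome, and the treatment of reads that match several genes is not stated, so their values are uncertain. Bmi1, a subunit of the Polycomb repressive complex 1, measured 26.3, 24.1, 163, 82.9, 28.2 and 11.7 CPM, with a slope of 2.76 (SE 0.37). The other named genes of steepest rise were Chml, Tspan13, Zbtb18, Gnai1, Ap3s1, Apoo and the predicted genes Gm8121 and Gm7868, with slopes from 2.76 to 3.24. With the set as a second term, Tspan13 and Zbtb18 lost the call (edgeR adjusted p = 0.143 and 0.0524) with slopes of 2.59 and 2.92.

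The steepest falls had fewer counts behind them. Vwa1, an extracellular matrix protein, measured 40.6, 42.9, 9.48, 14.2, 25.4 and 34.2 CPM, with a slope of -1.75 (SE 0.42, edgeR adjusted p = 0.00886). Tnrc18, a chromatin-associated protein, measured 17.0, 28.1, 6.40, 4.30, 12.6 and 23.4 CPM, with a slope of -2.11 (SE 0.50). In both genes libraries 3 and 4, which have the largest totals, were the lowest. Both genes were picked for a steep fall with total count, so this order follows from the choice. The other genes of steepest fall were Ckmt1, Cnfn, Espl1, Bcat2, Igfbp2, Kif3b, Nkain1 and the predicted gene Gm45509, with slopes from -2.29 to -1.54. With the set as a second term only Gm45509 and Igfbp2 of these 10 kept the call, although the slopes of the other 8 stayed negative, with Espl1 at -1.82, Cnfn at -1.86 and Nkain1 at -1.03.

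The direction of the slope followed base composition. The coding stretches below show the contrast between Zfp81 and Stag2, which rose, and Tnrc18 and Vwa1, which fell. Dsp, which also rose, is shown as a gene outside this contrast. Each is 120 bases of one coding exon, from the GENCODE transcript sequences of GRCm38, taken where its GC content is nearest that of the whole coding sequence, with G and C in capitals.
Zfp81, chr17:33335477-33335596, minus strand, exon 4 of 4: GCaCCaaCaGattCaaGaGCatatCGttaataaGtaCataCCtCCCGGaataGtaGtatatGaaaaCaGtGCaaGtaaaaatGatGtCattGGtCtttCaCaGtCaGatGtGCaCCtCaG
Stag2, chrX:42211103-42211222, plus strand, exon 4 of 34: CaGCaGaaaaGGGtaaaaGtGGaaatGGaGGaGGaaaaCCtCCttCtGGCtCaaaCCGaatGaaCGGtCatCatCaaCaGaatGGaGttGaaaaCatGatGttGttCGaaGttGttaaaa
Dsp, chr13:38167525-38167644, plus strand, exon 3 of 24: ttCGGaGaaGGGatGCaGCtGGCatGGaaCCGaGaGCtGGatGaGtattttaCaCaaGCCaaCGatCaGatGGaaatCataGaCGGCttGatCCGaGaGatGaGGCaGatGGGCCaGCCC
Tnrc18, chr5:142790069-142790188, minus strand, exon 3 of 16: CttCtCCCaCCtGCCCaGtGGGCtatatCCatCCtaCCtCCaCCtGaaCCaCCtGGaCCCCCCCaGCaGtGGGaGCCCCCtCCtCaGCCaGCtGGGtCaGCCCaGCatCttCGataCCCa
Vwa1, chr4:155772885-155773004, minus strand, exon 2 of 4: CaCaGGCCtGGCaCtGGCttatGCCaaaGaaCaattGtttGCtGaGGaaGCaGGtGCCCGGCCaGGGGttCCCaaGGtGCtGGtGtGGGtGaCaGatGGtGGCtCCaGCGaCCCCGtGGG
G and C make up 39.5% of the coding sequence of Zfp81 and 41.0% of that of Stag2, but 63.3% in Tnrc18 and 61.9% in Vwa1. Dsp, at 52.2%, rose as steeply as many AT-rich genes.

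The tested genes were split into 5 equal bins of transcript GC content. The bin of lowest GC (28.8% to 44.6%) held 692 genes that rose with total count and 1 that fell. The bin of highest GC (55.6% to 71.9%) held 12 that rose and 39 that fell. The median slope went from 0.82 in the bin of lowest GC to -0.35 in that of highest GC, and GC content alone accounted for 33.5% of the variance of slopes across genes, which are not independent replicates. Of the 200 genes of largest relative spread, 129 were in the bin of lowest GC and 4 in that of highest GC.

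**Figure D2:**
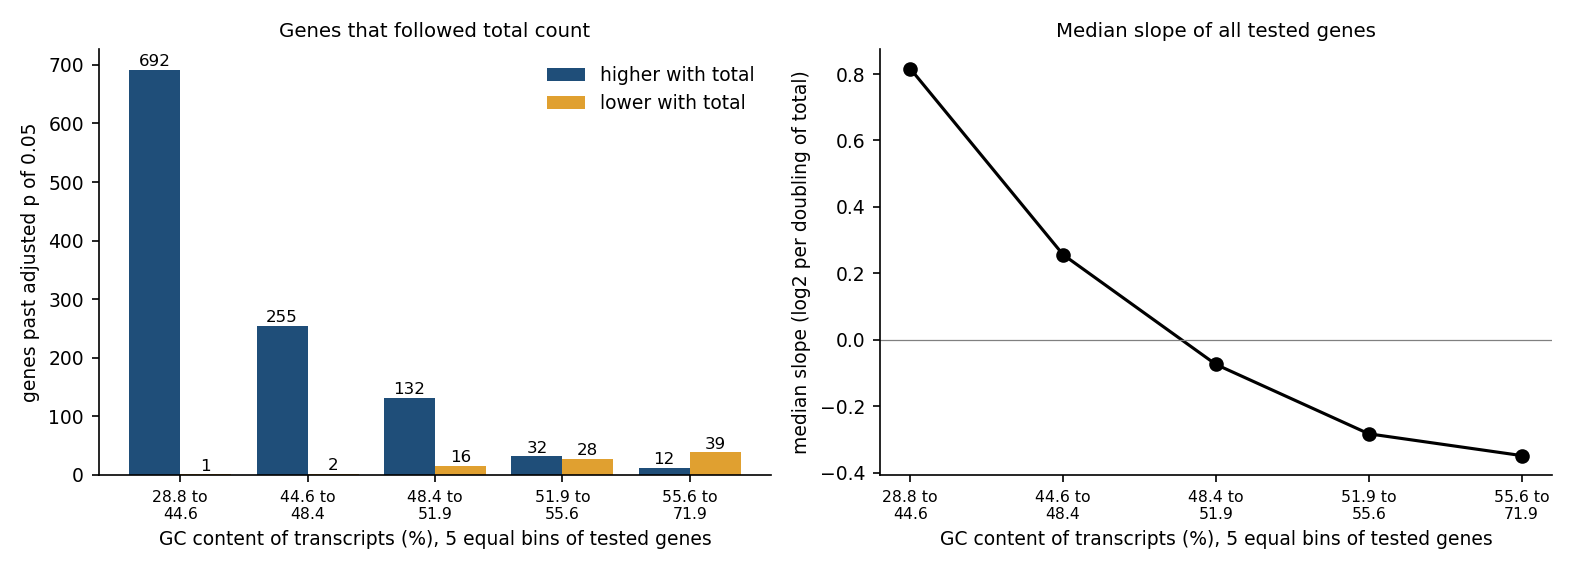
Genes past the threshold for a slope on total count (left, bars) and median slope of all tested genes in log2 per doubling of total (right, points), by 5 bins of transcript GC content with equal numbers of genes. Rising genes number 692 in the bin of lowest GC and 12 in that of highest GC, and the median slope falls from 0.82 to -0.35.

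The same gradient was seen library by library. The GC slope of a library, the change in log2 CPM relative to the gene mean for 10 more percentage points of GC, was 0.29, 0.16, -0.43, -0.34, 0.01 and 0.31 in libraries 1 to 6. It fell with total count (Pearson r = -0.986, exact permutation p = 0.00278, the smallest these 6 libraries allow; Benjamini-Hochberg adjusted p over 4 measures = 0.0111; Spearman rho = -0.943, adjusted exact permutation p = 0.0667). Without libraries 3 and 4, the farthest from the median total, r was -0.909. Mitochondrially encoded genes took 2.04%, 2.89%, 5.18%, 5.48%, 4.45% and 1.96% of counts, which rose with total count (r = 0.961, adjusted exact permutation p = 0.0333; rho = 0.886, adjusted p = 0.0667). Without the same 2 libraries r was 0.947. Within set MEM2 the 4 libraries are too few for a correlation, but the order was the same for both measures except that libraries 3 and 4 exchanged places in the mitochondrial share. The share of the 50 largest genes and the number of genes with a count did not pass (r = 0.680 and 0.356, adjusted exact permutation p = 0.187 and 0.564). With counts thinned to the smallest total, 2137934, the number of genes with a count went the other way (r = -0.798, adjusted exact permutation p = 0.05).

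**Figure D3:**
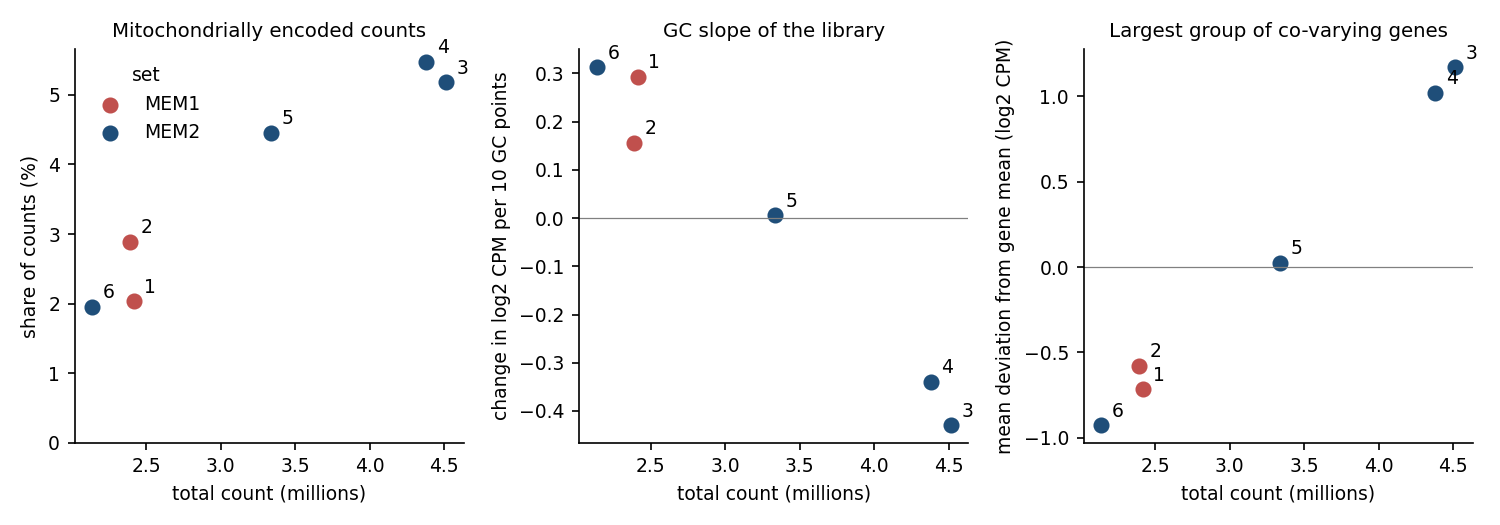
Share of mitochondrially encoded counts (%), GC slope (change in log2 CPM per 10 GC points) and mean log2 deviation of the largest co-varying group, each against total count. Each point is 1 distal library, numbered and coloured by set; the first and last rise with total count and the GC slope falls, with library 5 between libraries 3 and 4 and libraries 1, 2 and 6.

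Mitochondrially encoded genes, which are AT-rich, moved as a block. Of 11 tested members 9 rose with total count and none fell, against 12.7% and 0.975% of all tested genes. In the bin of lowest GC 692 of 1774 genes rose. All 9 had a relative spread above 2, against 7.43% of all tested genes. Among the mitochondrial genes, mt-Co1, a subunit of cytochrome c oxidase, measured 5416, 5988, 20559, 21925, 12154 and 4115 CPM, with a slope of 2.19 (SE 0.16, edgeR adjusted p = 7.21e-07). mt-Nd2 and mt-Cytb, subunits of complexes I and III, had slopes of 1.40 (SE 0.28) and 1.43 (SE 0.19). mt-Nd3 had a slope of -0.16 that did not pass (edgeR adjusted p = 0.87), with 5.89 to 13.5 CPM. The mean pairwise correlation over the list was 0.69, against 0.00 over all tested genes. With the GC and length trend removed, as described next, it was 0.24, and 1 member had a relative spread above 2.

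The slopes were then fitted again after the trend of each library with GC content and length had been removed. Of 8868 genes, 351 then rose with total count (3.96%) and 73 fell (0.823%), and 343 of the 1216 genes called before kept their call and direction. Dsp kept a slope of 2.44 (edgeR adjusted p = 1.91e-07) and Ndufb6 of 2.46 (adjusted p = 4.6e-07). Of the mitochondrial genes only mt-Co1 stayed past the threshold (slope 1.27, edgeR adjusted p = 0.00024). In a principal component analysis libraries 3 and 4 lay at one end of the first component, libraries 1, 2 and 6 at the other and library 5 between. The first component held 44.3% of the variance, or 33.7% with the trend removed, and its correlation with total count was 0.990 and 0.962, given as a description of these 6 libraries.

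Genes that vary together were sought among the 200 of largest relative spread with mean log2 CPM of at least 3. Of these, 174 fell into a single group with a mean pairwise correlation of 0.84. Their mean deviation from each gene's average was -0.71, -0.58, 1.17, 1.02, 0.03 and -0.92 on the log2 scale in libraries 1 to 6, which is the order of total count except for libraries 1 and 2. The genes nearest the group mean were Nae1 (a subunit of the enzyme that activates NEDD8), Trim59, Hnrnpdl and Sfpq (RNA-binding proteins), and Slc25a5 and Slc25a46 (mitochondrial carriers). Nae1 measured 94.8, 99.1, 327, 300, 145 and 86.4 CPM. Median GC content was 42.4% in the group and 50.1% over all tested genes. Il1a, mt-Co1, Dsp and Bmi1 were among its members. The cornified genes spread enough to be clustered, Cdsn, Cst6, Ly6g6c and Sprr1a, were not. Contractile genes could not enter, since their largest relative spread was 1.50 (Cald1) and the 200 genes began at 2.59.

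A second group of 8 genes was high in library 3. It included Kitl, the ligand of the receptor Kit, at 31.3, 24.5, 103, 35.1, 41.4 and 9.45 CPM, and Fgf13 at 15.9, 13.6, 120, 11.4, 16.9 and 6.30 CPM. Zfp958, Cenpp, Gm37494 and the noncoding transcript of the Rosa26 locus, Gt(ROSA)26Sor, were the other members nearest its mean. Gt(ROSA)26Sor measured 68.9, 39.3, 241, 78.9, 139 and 61.2 CPM. Library 3 was the highest in each of these genes.

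With the GC and length trend removed, the 200 genes of largest relative spread gave 3 groups. The largest, 127 genes with Moxd1, Slc25a5, H2afz and Mrpl18 nearest its mean, again rose from library 6 to library 3. In the slope fit made before the trend was removed, 122 of its genes rose with total count, against 12.7% of all tested genes. A second group of 14 genes had a mean deviation of -0.98, -0.51, 0.30, -0.64, 0.96 and 0.87 in libraries 1 to 6. Its correlation with total count was 0.01, so its variation ran across the depth gradient rather than along it. The members were Cldn3, Adamts1, Cdsn, Aldh1a3, Cxcl5, AU018091, Dsc2, Prss27, Cxcl12, Krt79, Clu, Klk6, Alcam and Tmem45a. Cldn3, a claudin of tight junctions, measured 155, 191, 276, 176, 426 and 498 CPM. Krt79, a keratin of the upper follicle, measured 22.1, 28.5, 38.2, 40.2, 95.3 and 65.3 CPM, and Prss27, a membrane serine protease, 19.7, 11.6, 35.4, 13.9, 58.8 and 71.6 CPM. Libraries 5 and 6 were the 2 highest in each of these 3 genes, and both belong to set MEM2. The third group held 10 genes, with Ndfip2, Cd9 and Leprot nearest its mean. Its mean deviation was 0.39, 0.36, -0.49, -1.43, 0.43 and 0.73 in libraries 1 to 6. The group was thus lowest in library 4 and next lowest in library 3, and its correlation with total count was -0.838. Cd9, a tetraspanin, measured 661 CPM in library 4 against 1269 to 2082 CPM in the others.

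**Figure D4:**
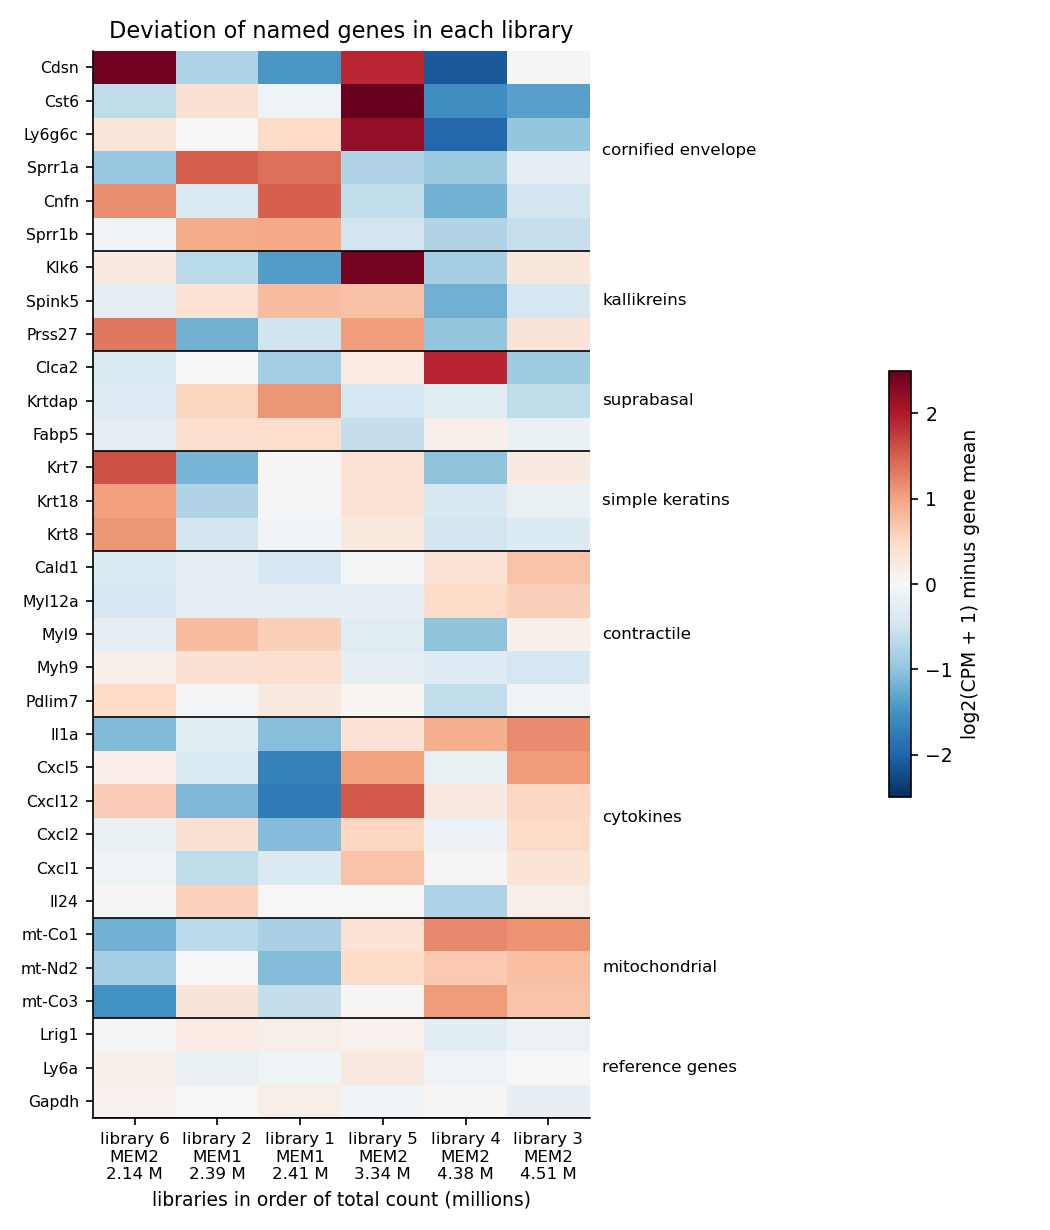
Deviation of log2(CPM + 1) from the gene mean (colour) for named genes in rows, with the 6 distal libraries in order of total count in columns. Mitochondrial genes and Il1a run with total count, while Cdsn, Cst6, Klk6 and the simple keratins peak in libraries 5 or 6; Lrig1, Ly6a and Gapdh stay near 0.

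Among the differentiation lists, the cornified genes had the widest spread. Of 54 cornified envelope and corneodesmosome genes listed, 12 passed the filter on low counts, 28 had a count, and the 12 had a median relative spread of 1.79 against 1.00 over all tested genes. The 6 above 2, against 7.43% of all tested genes, were Cdsn, Cst6, Ly6g6c, Sprr1a, Cnfn and Sprr1b. Their peaks fell in different libraries, and the mean pairwise correlation over the list was 0.17, or 0.0547 without library 3. Without the filter on low counts the median relative spread was 1.15, and around set means it was 1.21. The kallikrein and protease inhibitor list came next, with a median of 1.24. The suprabasal, barrier lipid and differentiation transcription factor lists had medians of 1.01, 0.94 and 0.93. Ly6g6c, a surface protein of the Ly6 family, was highest in library 5 at 130 CPM and lowest in library 4 at 6.32 CPM. Sprr1a, a small proline-rich protein that is cross-linked into the cornified envelope, measured 78.2, 85.0, 24.6, 14.9, 17.2 and 14.9 CPM. Sprr1b measured 96.8, 95.5, 33.0, 29.1, 35.6 and 46.4 CPM. In both of these genes the 2 libraries of set MEM1 lay above all 4 of MEM2. How many of all tested genes separate the sets in this way was not counted. Cnfn, another envelope protein, was highest in libraries 1 and 6 at 52.6 and 41.4 CPM. The plakins Evpl and Ppl had relative spreads of only 0.71 and 0.58.

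In the test on total count, 12.7% of all tested genes rose and 0.975% fell. With the GC and length trend removed these shares were 3.96% and 0.823%. Of the 12 cornified genes, 0 rose and 2 fell: Cnfn (slope -1.97, SE 0.55, edgeR adjusted p = 0.023) and Sprr1b (slope -1.40, SE 0.38, adjusted p = 0.022). Neither passed with the GC and length trend removed (adjusted p = 0.10 and 0.070). Cdsn, Cst6 and Klk6 had slopes of -1.57 (SE 1.77), 0.67 (SE 3.30) and 0.89 (SE 1.83), none past the threshold. Among 13 tested kallikreins and protease inhibitors, Serpinb5 rose (716, 704, 1357, 1639, 720 and 525 CPM; slope 1.26, edgeR adjusted p = 0.00048, or 0.28 and 0.54 with the trend removed), and Klk8 and Klk10 differed little between libraries (relative spread 0.66 and 0.95). Of 10 tested suprabasal genes, Sbsn fell (slope -0.68, SE 0.20, edgeR adjusted p = 0.034, or 0.315 with the trend removed) and Krtdap, at 171, 117, 50.2, 64.5, 57.6 and 63.0 CPM, did not pass (adjusted p = 0.094). Clca2 was high in library 4 alone, at 132 CPM against 17.9 to 39.5 CPM. Of 18 tested basal genes, with a median relative spread of 1.08, Itgb4, Lamb3, Col17a1 and Krt5 fell and Itga2 and Itgb1 rose, whereas 0 rose and 8 fell with upper-quartile scaling, and none passed with the trend removed.

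**Figure D5:**
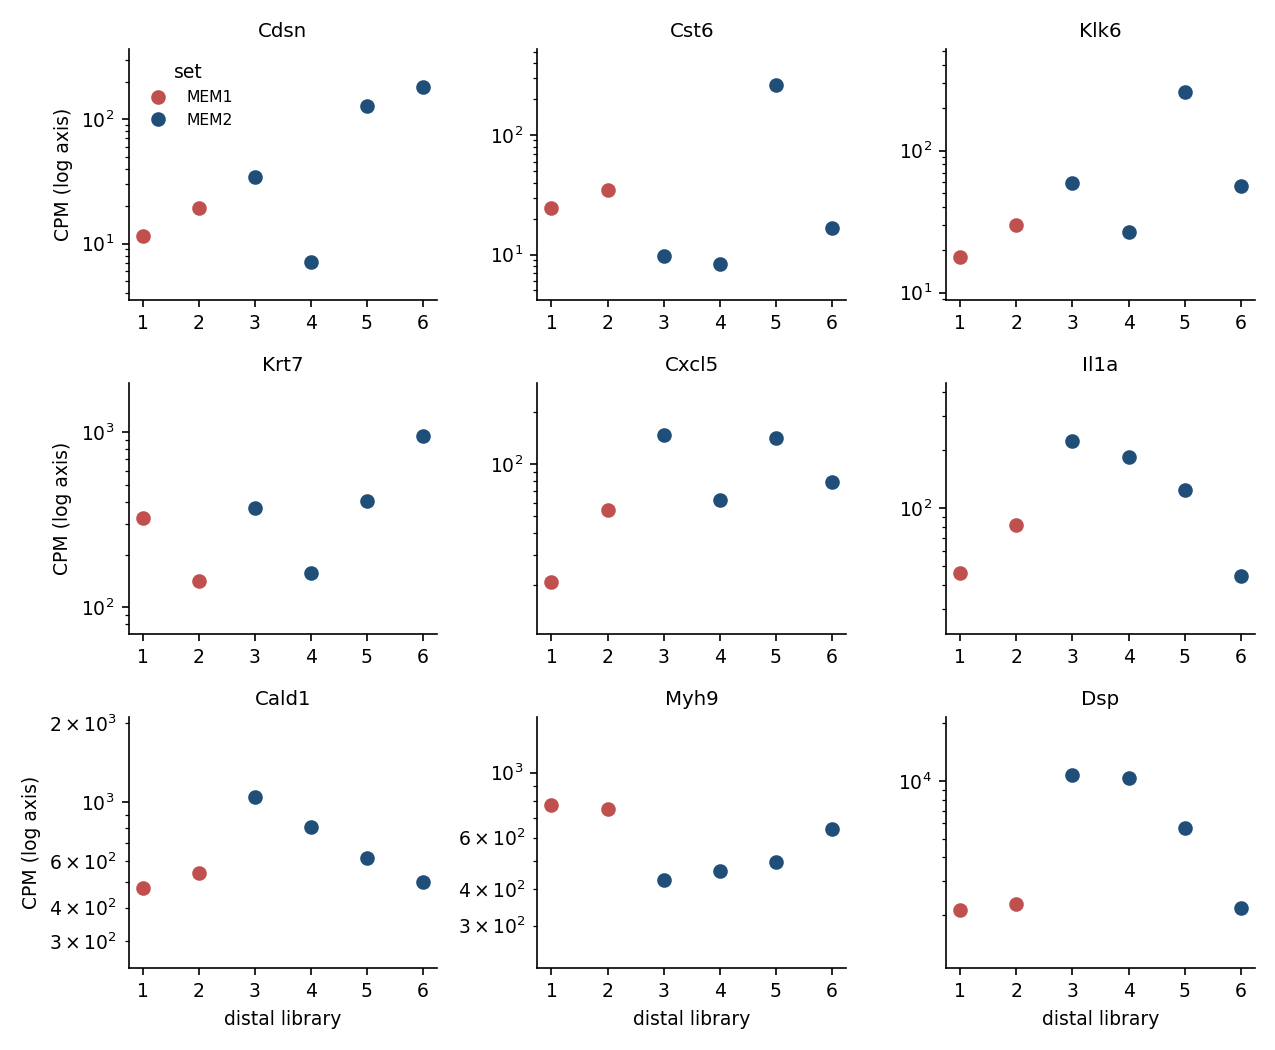
CPM (log axis) of 9 genes in distal libraries 1 to 6, coloured by set. Cdsn is highest in libraries 5 and 6, Cst6 and Klk6 in library 5 and Krt7 in library 6, while Dsp and Il1a are highest in libraries 3 and 4, and Cald1 and Myh9 cover about a 2-fold range.

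Simple keratins, which are typical of single-layered epithelia, varied together. Krt7 measured 325, 141, 370, 157, 403 and 954 CPM, Krt18 531, 324, 475, 411, 685 and 1106 CPM, and Krt8 451, 345, 371, 344, 558 and 1013 CPM. Library 6 was highest in all 3 and library 5 second, the mean pairwise correlation was 0.94, and none passed the test on total count. Krt20, which marks Merkel cells, was at 0 in every library.

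Contractile genes varied little. The 31 tested of 44 listed had a median relative spread of 0.83, and none exceeded 2, against 7.43% of all tested genes. On total count 2 rose and 3 fell, against 12.7% and 0.975% of all tested genes. Cald1 (caldesmon) measured 474, 540, 1050, 804, 614 and 501 CPM, with a slope of 0.89 (SE 0.18, edgeR adjusted p = 0.0027). Myl12a, a regulatory light chain of non-muscle myosin, rose with a slope of 0.84 (SE 0.17). Myh9, its heavy chain, measured 774, 750, 430, 461, 493 and 640 CPM, with a slope of -0.72 (SE 0.18, edgeR adjusted p = 0.014). Actb, which encodes beta-actin, fell with a slope of -0.55 (SE 0.17, edgeR adjusted p = 0.041). Cald1 and Myl12a kept the call with the GC and length trend removed, and the genes that fell did not. With upper-quartile scaling 12 of the 31 fell in place of 3. The mean pairwise correlation of 0.21 went to 0.04 with the trend removed. Skeletal actin, Acta1, did not pass the filter but measured 70.8 CPM in library 4 against 1.02 to 9.29 CPM in the others.

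Cytokines were of both kinds. Of 50 listed, 17 were tested, with a median relative spread of 1.01. Of the 17, 3 were above 2 (Il1a, Cxcl5 and Cxcl12), against 7.43% of all tested genes. Il1a, which encodes the alarmin interleukin 1 alpha, measured 46.1, 81.4, 222, 184, 124 and 44.6 CPM, with a slope of 1.96 (SE 0.26, edgeR adjusted p = 0.00014), or 1.13 with the trend removed (adjusted p = 0.013). It was the only cytokine called in either fit, 1 of 17. Of all tested genes 12.7% rose, or 3.96% with the trend removed. Cxcl5, a neutrophil-attracting chemokine, measured 20.9, 54.1, 147, 61.9, 141 and 78.8 CPM, with libraries 3 and 5 high and library 1 low. Its slope of 1.06 (SE 0.63) did not pass (edgeR adjusted p = 0.32). Cxcl12 measured 4.26, 7.22, 24.6, 19.7, 50.3 and 26.1 CPM, and both MEM1 libraries were below all 4 of MEM2. The share of all tested genes with such a separation was not counted. Cxcl1 ranged from 89.0 to 227 CPM and Cxcl16 had a relative spread of 0.37. Cxcl10, an interferon-induced chemokine that did not pass the filter, measured 47.8 CPM in library 5 and 0 to 5.62 CPM in the others. Among growth factors of the EGF family, Ereg stood high in library 4 at 136 CPM against 5.21 to 36.4 CPM, and its slope did not pass (edgeR adjusted p = 0.053).

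Of 18 tested chaperones 6 rose with total count, against 12.7% of all tested genes, and 4 did so with the trend removed, against 3.96%. In the other stress lists 0 of 14 amino acid stress genes, 1 of 14 oxidative stress genes and 1 of 17 hypoxia genes rose. Hsp90aa1 measured 1067, 1100, 2444, 3422, 1270 and 988 CPM, with a slope of 1.50 (SE 0.21, edgeR adjusted p = 0.00019), whereas Hspa5 and Hspd1 varied little (relative spread 0.30 and 0.29). Hspa1b also rose (slope 1.67, SE 0.39), but it is nearly identical to Hspa1a, so reads may be split between them. Of 17 tested p53 targets 6 rose, against 12.7% of all tested genes, among them Pmaip1, Ccng1 and Fas. With the trend removed 1 of 17 did, near the 3.96% of all genes (Perp, slope 0.62, edgeR adjusted p = 0.048). Cdkn1a, the best known target, had a slope of -0.46 that did not pass (adjusted p = 0.16).

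Fibroblast markers were low and uneven. Their sum over 22 genes was 207, 151, 416, 68.8, 90.1 and 86.0 CPM in libraries 1 to 6, with Lum, Dpt and Dpp4 at 0 in all. In library 3 Col1a2 measured 83.0 CPM and Vim 103 CPM, against 0.45 to 4.90 CPM and 15.1 to 17.9 CPM in the others. These 2 were named after their values were seen; of the 4 tested markers Vim alone was highest in library 3, while Sparc, Fbln1 and Fbln2 were highest in library 1, at 82.0, 43.7 and 43.0 CPM. Library 3 is also where the group of Kitl and Fgf13 was high; the part of other cell types in that group was not tested, and in bulk samples a larger share of a cell type and more RNA per cell cannot be told apart. Endothelial and skeletal muscle markers summed to at most 23.9 and 18.9 CPM. Of 9 melanocyte markers listed 5 had a count, while Dct, Tyr, Sox10 and Kit were at 0 in every library. The melanocyte sum was lowest in library 1, above 23.9 CPM in libraries 2 to 6 and highest in library 3.

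Between the sets, 0 of 8919 genes (0%) passed edgeR's quasi-likelihood test of MEM2 against MEM1. At an unadjusted p under 0.05, edgeR had 633 genes, DESeq2 754 and limma-voom 488, and at adjusted p under 0.05 DESeq2 called 16 and limma-voom 0. Sprr1a came nearest, with a log2 difference of -2.18 (SE 0.31, edgeR adjusted p = 0.168). Without library 6, edgeR called 25 genes, among them Sprr1a, Sprr1b and Dsp. Both MEM1 libraries have low totals, so set and depth overlap in part.

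Single libraries also stood apart in 410 genes (4.6% of those tested), by a gap to the nearest library that exceeds Dixon's critical value on the log2 scale; chance sets about 1 in 20 genes apart. Library 3 was high alone in 61 genes and low alone in 70, library 4 in 58 and 61, and libraries 1, 2, 5 and 6 in 12 to 26 each way.

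The spread was also computed over the 8 control libraries, which played no part in the ranking. Their median SD was 0.41, close to that of the distal libraries. The comparison took the 7841 genes tested in both groups with mean log2 CPM of at least 3 in each. Among them, 16 of the 100 most spread in distal libraries were also among the 100 most spread in control libraries. Of the 100 most spread in distal libraries, 27 had a relative spread above 2 in the control libraries, against 2.47% of the 7841 genes. Cxcl5 had a relative spread of 3.06 there, Klk6 of 2.05, Il1a of 1.90, Krt7 of 1.88 and Dsp of 1.59. The cornified list had a median of 1.06 in the control libraries, where Cdsn and Cst6 did not pass the filter.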

How the data were processed

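Poly(A) RNA was measured in 6 distal and 8 control libraries. The authors deposited raw counts per gene symbol; the submitters' processing notes name HISAT2, featureCounts and the mm10 build. Strand use and the treatment of multi-mapping reads in counting are not stated there. Counts were filtered with filterByExpr, scaled by TMM and tested with edgeR 4.0.16 (R 4.3.3) by the quasi-likelihood test: a slope on log2 total count, and MEM2 against MEM1, with Benjamini-Hochberg adjustment at 0.05. DESeq2 1.42.0 and limma 3.58.1 (voom) were alternatives. Spread used log2 CPM with a prior count of 2. GC content and length came from GENCODE transcripts, matched for 8868 of 8919 genes, and their trend was removed with splines of 4 degrees of freedom. The 200 most spread genes were clustered on 1 minus r, in groups of at least 8. The slope and spread computations were tested on simulated data. Library measures were set against total count by Pearson and Spearman correlation with exact permutation p-values, and lists are described by counts and medians.

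Named genes were the 20 of largest relative spread with mean log2 CPM of at least 3 and a gene name, the 6 nearest each group's mean, up to 6 of largest spread per list, the 10 steepest slopes each way, and 7 reference genes. Further list members were named after their values were seen. Members and lists were chosen with earlier results of these data known. Another filter, clustering with the trend removed, and the library's GC slope as the only term were added after seeing the data. A gene covered by the naming rule is not reported here.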

Additional observations from a re-analysis of the deposited data

Results flagged for a closer look

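Of 149 named genes, 5 library measures and 15 list scores, 4 genes had 1 distal library apart from the other 5, by a gap to the nearest library, as a share of the range on the log2 scale, above Dixon's 95% critical value. Chance sets about 1 in 20 such groups apart. Fgf13 stood at 120 CPM in library 3 (gap 0.677 of the range) and Vim at 103 CPM in library 3 (0.912). Tspan13 stood at 95.3 CPM in library 4 (0.679), and Krt14 was low in library 3 at 6424 CPM (0.680).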

How the results depend on the processing

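The count of 1216 genes that followed total count fell to 424 with the GC and length trend removed, 638 with the set as a second term and 360 in MEM2 alone, and ranged from 706 to 1290 with 1 library left out (714 without library 3, 706 without library 6). DESeq2 called 1385, limma-voom 1087 and the library's GC slope as the only term 1287, of which 1205, 1065 and 1149 were shared; no shared gene had the opposite sign in these fits. The count of 0 between the sets became 1 with upper-quartile scaling, without the filter and with thinned counts, 16 with DESeq2, and 0 to 25 with 1 library left out. Of the 100 most spread genes, 54 remained with the trend removed, 64 by edgeR's gene-wise dispersion and 61 to 85 with 1 library left out. The median SD was 0.51 without the filter, 0.37 with the trend removed and 0.48 with at least 10 counts in 2 or more libraries. The cornified median spread was 1.15 without the filter and 1.21 around set means; its mean pairwise r was 0.28 (upper-quartile), -0.0156 (no filter), 0.0647 (thinned), 0.0282 (10 counts in 2 or more libraries) and 0.0547 to 0.18 with 1 library left out. The contractile median spread was 0.99 (upper-quartile), 0.70 (set means) and 0.58 (dispersion); its r was 0.42, 0.0903 (no filter), 0.0410 (trend removed), 0.15 (10 counts in 2 or more libraries) and 0.19 to 0.27 with 1 library left out. The cytokine median spread was 1.22 with the trend removed and 1.20 with 10 counts in 2 or more libraries, and r was 0.0636 without the filter. The causes of these shifts were not tested. Upper-quartile scaling gave 32 falling ribosomal and 8 falling basal genes, against 3 and 4. No paired analysis was possible because the comparison is within 1 group whose replicate numbers name single libraries. With 6 libraries, 2 of them in MEM1, and totals from 2137934 to 4513518, set, depth and GC trend overlap, and genes at a few CPM rest on few counts.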
